A study of Mus musculus with 45 samples.

Results

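Esrrb, Tfcp2l1, Nr5a2, Tbx3, Gbx2, Nr0b1, Zfp42 and Tcl1 are 8 genes of the naive pluripotency network, and they were followed here in 45 libraries of differentiating male mouse ESCs. They were chosen by name, as 8 of the 35372 genes counted in each library, and the rule that names them uses no measured value. The choice was made with earlier results of these data known. The measurement was strand-specific sequencing of RNA depleted of ribosomal RNA from E14tg2a, a wild-type ESC line of the 129/Ola background. The ESCs had been maintained in 2iL, which is serum-free N2B27 medium with the Gsk3 inhibitor CHIR99021, the Mek inhibitor PD0325901 and LIF, or in SL, which is serum with LIF. Each maintenance medium was then replaced by 1 of 3 differentiation conditions. These were suspension culture in serum without LIF, which forms embryoid bodies (serum EB), adherent culture with Fgf2 and ActivinA added to N2B27 (FA), and adherent culture in plain N2B27 (N2B27). The labels call them EB, EpiSC and Neural. Libraries were made at days 0, 1, 1.5, 2, 2.5, 3, 5 and 7, with 1 library for each medium, condition and day. A single SL library at day 0 serves all conditions, and day 5 of FA from 2iL was not analysed here.

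The naive network is the set of transcription factors that holds mouse ESCs in the state of the preimplantation epiblast, and its members bind and activate one another's genes. LIF acts through Stat3, which activates Tfcp2l1 and, among other targets, Gbx2. Inhibition of Gsk3 relieves repression by Tcf7l1, which keeps Esrrb among its targets. Inhibition of Mek shields the network from Fgf signalling. Esrrb and Nr5a2 are orphan nuclear receptors that bind closely related DNA elements, and Nr0b1 (Dax1) is a corepressor of nuclear receptors that is encoded on the X chromosome. Tfcp2l1 is a factor of the Grainyhead-like family, Tbx3 a T-box factor, Gbx2 a homeobox factor, and Zfp42 (Rex1) a zinc finger protein used as a reporter of the naive state. Tcl1 is a coactivator of the Akt kinase. All comparisons are between libraries of 1 male line. Conditions that share a day stand in for replicates, and nothing in the labels says that they came from separate cultures. In tests between days, and between media during differentiation, the fit removes constant differences between conditions. The p-values of these tests measure the spread that remains. In tests between conditions, p-values measure the spread over media and neighbouring days. In the test between media before differentiation, they measure the spread between libraries of undifferentiated cells. In bulk RNA, fewer expressing cells and less RNA per cell cannot be told apart.

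On GRCm38, Tfcp2l1 (ENSMUSG00000026380) lies on the positive strand at chr1:118627945-118685168 and Esrrb (ENSMUSG00000021255) on the positive strand at chr12:86361117-86521628. Nr5a2 (ENSMUSG00000026398, chr1:136842571-136960448) and Gbx2 (ENSMUSG00000034486, chr1:89927956-89931179) are on the negative strand of the same chromosome as Tfcp2l1. Tbx3 (ENSMUSG00000018604) is at chr5:119670669-119684724 on the positive strand, Nr0b1 (ENSMUSG00000025056) at chrX:86191764-86195947 on the positive strand, Zfp42 (ENSMUSG00000051176) at chr8:43295063-43306980 on the negative strand and Tcl1 (ENSMUSG00000041359) at chr12:105216750-105222793 on the negative strand. The values cover the exons of each gene. The small RNA gene Gm23497 lies inside Tfcp2l1 on the same strand and D130058E05Rik overlaps Gbx2 on the opposite strand.

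RefSeq promoters of the GRCm38.p6 build were at hand for Esrrb, Tfcp2l1, Nr5a2, Gbx2, Nr0b1, Zfp42 and Tcl1, which gives 9 promoters because Esrrb and Nr5a2 have 2 each. They are shown for the gene with the octamer motif of Oct4 and related factors, for both genes with a TATA box, and for Gbx2, which moved apart from the other members. The letters run 5′ to 3′ on the strand of the gene and end at the base before the RefSeq start, and capitals mark the octamer or the TATA box.
Zfp42, chr8:43307010-43307259, negative strand: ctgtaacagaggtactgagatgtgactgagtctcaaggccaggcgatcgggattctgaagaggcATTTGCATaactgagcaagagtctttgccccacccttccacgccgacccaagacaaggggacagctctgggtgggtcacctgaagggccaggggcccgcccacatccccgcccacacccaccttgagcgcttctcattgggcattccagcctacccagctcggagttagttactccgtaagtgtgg
Tfcp2l1, chr1:118627825-118627944, positive strand: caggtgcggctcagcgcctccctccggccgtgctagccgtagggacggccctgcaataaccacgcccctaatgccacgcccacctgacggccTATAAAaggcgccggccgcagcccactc
Nr0b1, chrX:86191655-86191774, positive strand: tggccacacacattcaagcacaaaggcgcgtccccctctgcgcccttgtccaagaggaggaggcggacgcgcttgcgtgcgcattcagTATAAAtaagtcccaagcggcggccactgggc
Gbx2, chr1:89931177-89931296, negative strand: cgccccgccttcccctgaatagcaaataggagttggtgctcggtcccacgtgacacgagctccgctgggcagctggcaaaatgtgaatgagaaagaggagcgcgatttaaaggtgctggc
The search covered 250 bases upstream of each start. The octamer ATGCAAAT, on either strand, was found in Zfp42 among the members and in 1.60% of all 32851 promoters. The TATA box TATAAA, on the strand of the gene, was found in Tfcp2l1 and Nr0b1 and in 7.59% of all promoters. The nuclear receptor element TCAAGGTCA that Esrrb binds, its core AAGGTCA, the Stat element TTCCNGGAA and the Tcf element CTTTGAT, each on either strand, were found in no member's window, and in 0.387%, 4.08%, 0.913% and 3.21% of all promoters. These matches describe letters in a window and not binding.

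The genes of each library took up 13093226 to 39804240 reads. The 8 serum EB libraries from 2iL were the deeper (median 34490692 reads, against 17297450 in the other 37). Levels are given as CPM, the reads of a gene per 1000000 reads counted in the library. A count of 3 reads corresponds to 0.0754 to 0.229 CPM, and such floors cover counting error only. All 8 genes passed the filter on low counts in each comparison. At day 0, the general pluripotency gene Pou5f1 (Oct4) was at 488 to 563 CPM in 2iL and at 719 CPM in SL. The SL library at day 0 also held 438 summed CPM of 8 extraembryonic endoderm markers, of which Cubn made up 274 CPM, against 3.7 to 6.1 CPM in 2iL.

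In 2iL at day 0, Tfcp2l1 and Esrrb had the most reads of the members. Tfcp2l1 was at 1843 (FA), 1808 (N2B27) and 2024 CPM (serum EB) in the day 0 libraries of the 3 time courses from 2iL, and at 623 CPM in the SL library. Every 2iL library lay above the SL library. Esrrb was at 769, 836 and 740 CPM in 2iL and at 561 CPM in SL. Per kilobase of exon, the order of the levels in 2iL was Tfcp2l1 at 200 ± 12.3 CPM per kb (SD, n = 3), Zfp42 at 182 ± 12.4, Esrrb at 129 ± 8.15, Tcl1 at 57.0 ± 6.13, Nr0b1 at 28.2 ± 7.68, Tbx3 at 24.8 ± 4.47, Nr5a2 at 17.5 ± 0.461 and Gbx2 at 13.7 ± 3.39. Libraries overlapped between the neighbours Tfcp2l1 and Zfp42, Nr0b1 and Tbx3, and Nr5a2 and Gbx2. In SL the order per kb was led by Zfp42 at 204 CPM per kb, followed by Esrrb at 92.7 and Tfcp2l1 at 66.0.

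The comparison of the maintenance media at day 0 asks which members depend on the medium before differentiation. Tfcp2l1, Nr5a2, Tcl1 and Gbx2 were higher in 2iL, which is 4 of 8 members where 13.5% of all genes tested were higher. Tfcp2l1 was higher by 1.66 ± 0.25 on the log2 scale (SE, adjusted p = 0.0014, quasi-likelihood test of edgeR, adjusted by Benjamini-Hochberg over all genes tested). Nr5a2 was at 106, 102 and 101 CPM in 2iL and 45.1 CPM in SL, a log2 difference of 1.25 ± 0.17 (edgeR adjusted p = 0.00093). Tcl1 was at 113, 110 and 92.2 CPM against 61.5 CPM (log2 0.83 ± 0.19, edgeR adjusted p = 0.0119). Gbx2 was at 22.8, 29.3 and 37.5 CPM against 17.4 CPM (0.84 ± 0.28, edgeR adjusted p = 0.0463). For these 4 genes no 2iL library was as low as the single SL library, an order whose share among all genes was not counted. Esrrb differed by 0.54 ± 0.21 (edgeR adjusted p = 0.0836, DESeq2 adjusted p = 0.0189), and its 3 libraries in 2iL also lay above SL. Tbx3 was at 132, 170 and 191 CPM in 2iL and 192 CPM in SL, Nr0b1 at 44.2, 67.0 and 42.0 against 58.0 CPM, and Zfp42 at 366, 319 and 340 against 383 CPM. Their log2 differences were between -0.16 and -0.11 and did not pass the test. The spread in this comparison comes from the 3 libraries in 2iL alone. With the spread of all 45 libraries, Gbx2 and Tcl1 did not pass (edgeR adjusted p = 0.653 and 0.35), and without the serum EB library Gbx2 did not pass (edgeR adjusted p = 0.0837). The extraembryonic endoderm markers differed in the same comparison, with 8 of 8 lower in 2iL, where 17.3% of all genes tested were lower. So did the 2-cell-like markers, with 6 of 6 lower in 2iL, at 11.9 to 80.4 summed CPM against 361 CPM in SL. The part of both lists in the differences between the media was not tested.

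**Figure D1:**
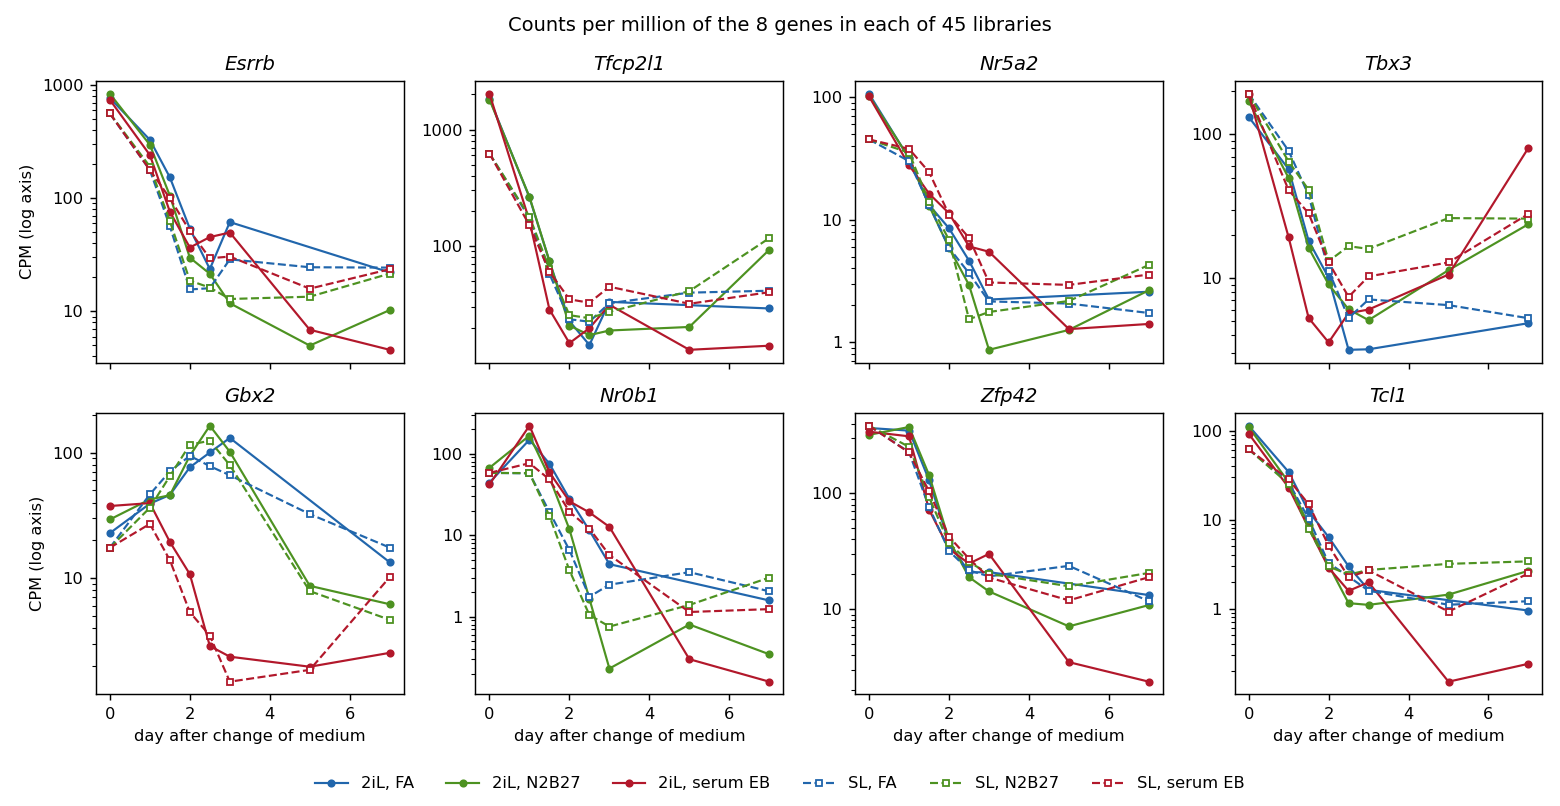
CPM (log axis) of each of the 8 genes against the day after the change of medium, 1 point per library, with filled points and solid lines for 2iL and open points and dashed lines for SL. The SL library at day 0 is drawn in each SL line, and the line of FA from 2iL runs from day 3 to day 7 because day 5 was not analysed. Esrrb starts at 740 to 836 CPM in 2iL and is at most at 61.5 CPM in each library from day 2 on, whereas Gbx2 parts by condition.

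The change over the initial day from 2iL separates members that fell at once from members that did not. Tfcp2l1 had the largest fall of the members, to 261 CPM in FA, 265 in N2B27 and 165 in serum EB at day 1, which is 8.14% to 14.6% of day 0 in the same time course. Its log2 change was -3.12 ± 0.47 (edgeR adjusted p = 0.00014). Esrrb fell to 328, 296 and 241 CPM, which is 32.6% to 42.6% of day 0 (log2 -1.48 ± 0.44, edgeR adjusted p = 0.0199). Nr5a2 fell to 31.6, 32.0 and 27.9 CPM (-1.77 ± 0.35, edgeR adjusted p = 0.0014). Tcl1 fell to 34.2, 26.2 and 22.9 CPM (-1.95 ± 0.48, edgeR adjusted p = 0.0066). Tbx3 fell to 57.3, 49.7 and 19.2 CPM (-1.96 ± 0.71, edgeR adjusted p = 0.0474). In each of these 5 genes all 3 libraries of day 1 lay below all 3 of day 0, and 28.6% of all genes tested changed in either direction.

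Zfp42, Gbx2 and Nr0b1 did not fall over the same day. Zfp42 was at 347, 373 and 310 CPM at day 1 against 366, 319 and 340 CPM at day 0, and the groups overlapped (log2 change -0.02 ± 0.38, edgeR adjusted p = 0.986). Gbx2 was at 39.2, 42.4 and 39.6 CPM, above its day 0 value in 3 of 3 time courses (0.26 ± 0.93, edgeR adjusted p = 0.869). Nr0b1 was at 148, 166 and 220 CPM against 44.2, 67.0 and 42.0 CPM at day 0. All 3 libraries of day 1 lay above all 3 of day 0, an order not counted over all genes. They were at 248% to 524% of the day 0 value in the same time course. The log2 change of 1.68 ± 0.71 did not pass the test (edgeR adjusted p = 0.0882). Nr0b1 passed with the spread of all 45 libraries (edgeR adjusted p = 0.0319) and without the N2B27 libraries (0.0444) but not with DESeq2.

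The median change of the 8 members over this day was -1.62, beside 0.02 for all genes tested. The calls depended on which condition was left out. Without the serum EB libraries 5 members passed, without N2B27 4, counting Nr0b1, and without FA 2, Tfcp2l1 and Tbx3, with edgeR adjusted p of 0.109 for Esrrb, 0.071 for Nr5a2 and 0.115 for Tcl1. Tbx3 was at the threshold, with an edgeR adjusted p of 0.0504 without TMM factors, 0.052 without the filter on low counts and 0.0525 without the replicate block, and Esrrb and Tbx3 were at 0.0831 and 0.232 without the N2B27 libraries.

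From SL, the same step was smaller for Tfcp2l1 and Nr5a2, though the difference between the media did not pass its own test. Esrrb went from 561 CPM at day 0 to 177 (FA), 190 (N2B27) and 178 CPM (serum EB) at day 1, a log2 change of -1.55 ± 0.42 (edgeR adjusted p = 0.0201). Tfcp2l1 went from 623 CPM to 174, 179 and 151 CPM (-1.84 ± 0.39, edgeR adjusted p = 0.0054). These 2 of 8 members passed, where 9.69% of all genes tested were lower. With a single SL library at day 0, the p-values of this step hold no spread between undifferentiated SL cultures. Tbx3 was at 76.8, 64.8 and 40.9 CPM at day 1 (-1.55 ± 0.56, edgeR adjusted p = 0.0646) and Tcl1 at 26.2, 25.1 and 28.3 CPM (-1.16 ± 0.44, 0.0779). Zfp42 was at 226, 252 and 225 CPM (-0.66 ± 0.28, edgeR adjusted p = 0.110) and Nr5a2 at 30.1, 35.2 and 37.8 CPM (-0.34 ± 0.38, 0.569). In these 4 genes the 3 libraries of day 1 lay below the single SL library at day 0, an order not counted over all genes. Nr0b1 was at 57.3, 57.7 and 76.3 CPM, around its day 0 value of 58.0 CPM. Gbx2 was at 46.5, 36.4 and 27.01 CPM against 17.4 CPM at day 0. Without the FA libraries neither Esrrb nor Tfcp2l1 passed (edgeR adjusted p = 0.0522 and 0.059), while Tbx3 did (0.0206). Esrrb also missed the threshold without the N2B27 libraries (0.0528), without the replicate block (0.0729) and with the spread of all 45 libraries (0.0566), and Tcl1 passed without N2B27 (0.0273).

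The difference between 2iL and SL in the change from day 0 to day 1 was tested as an interaction, and 0 of 8 members passed by edgeR or by DESeq2, where 8.54% of all genes tested did so by edgeR. Nr5a2 had an unadjusted p under 0.05 among the 8, with a difference of -1.44 ± 0.58 (edgeR adjusted p = 0.128). The differences for Tfcp2l1 and Nr0b1 were -1.27 ± 0.71 and 1.57 ± 1.05 (edgeR adjusted p = 0.293 and 0.404). SL enters this test with a single library at day 0.

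On later days the test of the starting medium called no member. At day 1, 0 of 8 passed where 14.1% of all genes tested did in either direction. Nr0b1 was higher from 2iL in 3 of 3 conditions at day 1, by 1.52 ± 0.66 (unadjusted p = 0.0301, edgeR adjusted p = 0.131), and was alone among the members in having an unadjusted p under 0.05. At day 2, 0 of 8 passed where 8.25% of all genes did, at day 3 0 of 8 where 0.571% did, and at day 7 0 of 8 where 0.0911% did. DESeq2 called 0 of 8 at each of these 4 days. No member had an unadjusted p under 0.05 at days 2 and 3, and at day 7 Esrrb and Zfp42 did, with log2 differences of -0.97 ± 0.46 and -1.02 ± 0.37 (edgeR adjusted p = 0.751 and 0.564).

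**Figure D2:**
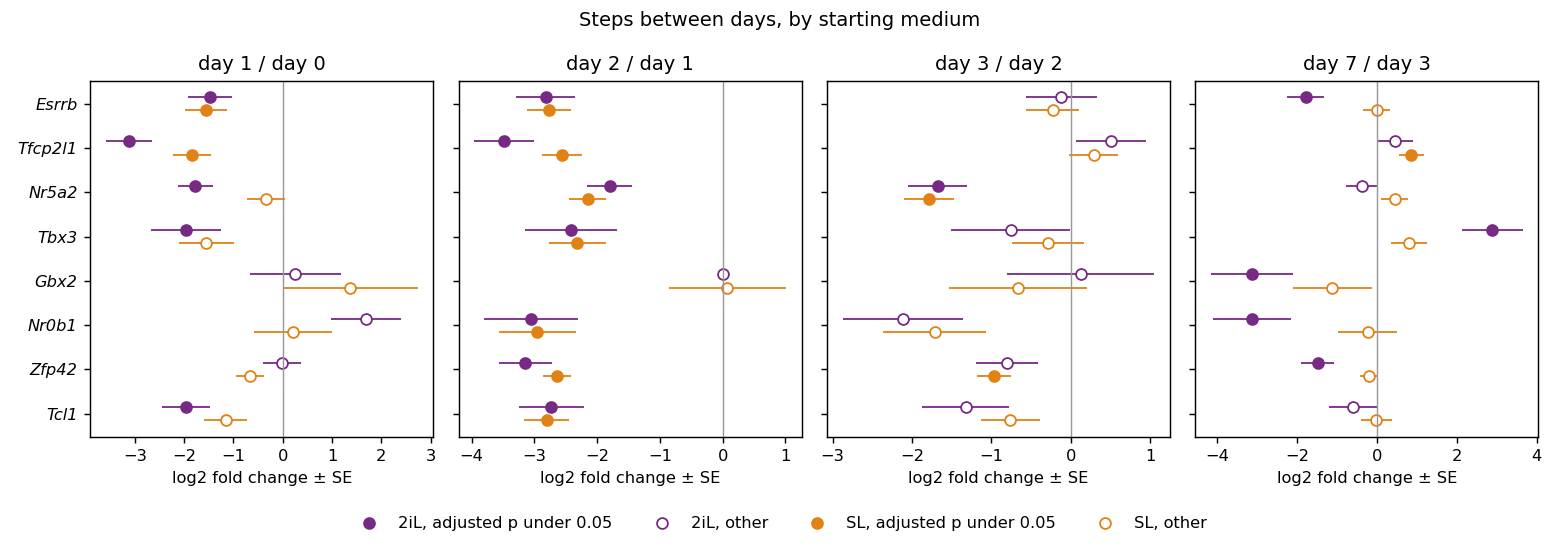
Log2 fold change with its standard error (horizontal axis) for each of the 8 genes at 4 steps between days, from 2iL (purple) and from SL (orange), where filled points have an edgeR adjusted p under 0.05. All members but Gbx2 have filled points left of 0 in both media from day 1 to day 2, and the step of Gbx2 from 2iL, at 0.00, is drawn without an error bar, since the ratio that gives the standard error is unstable for a change so near 0.

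Between day 1 and day 2, 7 of 8 members fell from either starting medium, and Gbx2 was the exception in both. From 2iL, Zfp42 dropped from 347, 373 and 310 CPM to 37.6, 39.7 and 33.2 CPM (log2 -3.14 ± 0.42, edgeR adjusted p = 0.00015). These groups lay far apart, a separation not counted over all genes. At day 1.5 Zfp42 was at 130, 144 and 72.5 CPM, so its fall began later than that of Esrrb. In each of the 3 time courses from 2iL, Esrrb was under 50% of day 0 at day 1 and Zfp42 at day 1.5. Tfcp2l1 fell to 22.7, 20.8 and 14.7 CPM at day 2 (-3.48 ± 0.48, edgeR adjusted p = 0.00019) and Esrrb to 53.9, 29.8 and 36.7 CPM (-2.82 ± 0.47, 0.00082). Nr0b1 fell from its day 1 level to 27.9, 11.8 and 26.0 CPM (-3.05 ± 0.75, edgeR adjusted p = 0.0109). Its day 2 libraries were 17.6% to 63.1% of day 0. Nr5a2 changed by -1.80 ± 0.36, Tbx3 by -2.41 ± 0.73 and Tcl1 by -2.73 ± 0.52, and each fell in 3 of 3 time courses. From 2iL, 8.77% of all genes tested were lower at this step. Without the FA libraries Nr5a2, Tbx3, Nr0b1 and Tcl1 did not pass (edgeR adjusted p = 0.122, 0.105, 0.133 and 0.0852), nor did Tbx3 without the N2B27 libraries (0.225).

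From SL, the changes between day 1 and day 2 lay between -2.96 ± 0.61 for Nr0b1 and -2.15 ± 0.29 for Nr5a2 over the 7 genes that fell, where 8.66% of all genes tested were lower. Zfp42 went from 226, 252 and 225 CPM to 31.9, 37.0 and 42.2 CPM (-2.64 ± 0.22, edgeR adjusted p = 2.6e-06). Esrrb went to 15.6 CPM in FA, 18.7 in N2B27 and 51.3 in serum EB, which was the highest of the 3. Nr0b1 did not pass without the FA libraries (edgeR adjusted p = 0.0885). By day 2, Tfcp2l1 was at 0.726% to 1.23% of day 0 in the time courses from 2iL and at 3.79% to 5.61% in those from SL, and its levels were close, at 14.7 to 22.7 CPM and 23.6 to 34.9 CPM.

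From day 2 to day 3, Nr5a2 fell from either medium. From 2iL it went from 8.51, 5.90 and 11.3 CPM to 2.23, 0.868 and 5.48 CPM (log2 -1.68 ± 0.38, edgeR adjusted p = 0.0056), and it was the 1 of 8 members called where 11.1% of all genes were lower. Its libraries at day 3 lay below those at day 2, an order not counted over all genes. The call did not hold without FA (edgeR adjusted p = 0.161) or without N2B27 (0.0706). Without the serum EB libraries Nr0b1, Zfp42 and Tcl1 passed as well (edgeR adjusted p = 0.0143, 0.00075 and 0.0177). From SL, Nr5a2 changed by -1.78 ± 0.31 (edgeR adjusted p = 0.0034) and Zfp42 by -0.97 ± 0.21 (0.0106), which were 2 of 8 where 6.64% of all genes were lower. Zfp42 did not pass without serum EB (edgeR adjusted p = 0.0563), without N2B27 (0.148) or with the spread of all 45 libraries (0.0595), and Nr5a2 did not pass without FA (0.0871). Tfcp2l1 did not fall further: from 2iL it was at 33.2, 18.9 and 31.4 CPM at day 3, above its day 2 value in 2 of 3 time courses (0.51 ± 0.44, edgeR adjusted p = 0.435).

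At day 7 all 8 members were lower than at day 0 in 2iL, beside 29.9% of all genes tested. The median change was -5.63, against 0.04 for all genes tested. Tcl1 changed by -6.62 ± 0.63, Nr0b1 by -6.61 ± 0.99 and Esrrb by -6.20 ± 0.55 (edgeR adjusted p = 2.4e-07, 2.8e-05 and 1.3e-07). Tfcp2l1 changed by -5.64 ± 0.53, Nr5a2 by -5.63 ± 0.43 and Zfp42 by -5.45 ± 0.47. Esrrb was at 22.1 (FA), 10.3 (N2B27) and 4.58 CPM (serum EB), Nr0b1 at 1.58, 0.346 and 0.160 CPM, and Tcl1 at 0.950, 2.66 and 0.240 CPM, so serum EB was the lowest of the 3 for each. The serum EB value of Nr0b1 rested on few reads, and for Nr0b1 and Tcl1 in these libraries the counting error is large. Gbx2 and Tbx3 changed least, by -2.75 ± 1.03 and -2.25 ± 0.72 (edgeR adjusted p = 0.0287 and 0.0121). Gbx2 did not pass without the FA libraries (0.0646), without N2B27 (0.0969) or without the replicate block (0.135), nor did Tbx3 without FA (0.0501) or without N2B27 (0.148).

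Between day 3 and day 7 from 2iL, Esrrb (-1.79 ± 0.47), Zfp42 (-1.49 ± 0.42), Gbx2 (-3.13 ± 1.03) and Nr0b1 (-3.13 ± 0.98) fell, with edgeR adjusted p of 0.0113, 0.0157, 0.0333 and 0.0264. Esrrb and Zfp42 fell in 3 of 3 time courses, but Gbx2 and Nr0b1 in 2 of 3. The log2 changes were 0.10 for Gbx2 in serum EB and 0.43 for Nr0b1 in N2B27, where Nr0b1 went from 4 to 6 reads. The calls cover 4 of 8 members, where 13.9% of all genes were lower. Zfp42 went from 20.9, 14.24 and 30.0 CPM to 13.2, 10.9 and 2.37 CPM, with its largest step in serum EB. Tbx3 rose, from 3.19, 5.09 and 6.04 CPM to 4.85, 23.7 and 80.7 CPM (2.88 ± 0.76, edgeR adjusted p = 0.0116), and was the 1 of 8 members higher where 14.3% of all genes were. From SL over the same days no member was lower by edgeR or DESeq2 or had an unadjusted p under 0.05 for a fall, and Tfcp2l1 rose by 0.86 ± 0.31 (edgeR adjusted p = 0.0492), the 1 of 8 where 15.4% of all genes were higher. That call ended without the filter on low counts (0.057), without the block (0.0627), without FA (0.133), without N2B27 (0.873) and with the spread of all 45 libraries (0.18).

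From 2iL, the later calls also leaned on single conditions. Without FA, Tbx3 alone passed among the members from day 3 to day 7, with edgeR adjusted p of 0.062 for Esrrb, 0.23 for Gbx2, 0.0812 for Nr0b1 and 0.0641 for Zfp42. Without serum EB, Esrrb and Nr0b1 did not pass (0.104 and 0.41), and without N2B27 Tbx3 and Gbx2 did not (0.0987 and 0.234) while Tcl1 did (0.0213). The fall of Gbx2 missed the threshold without the replicate block (0.0633). From SL, Gbx2 passed without serum EB (0.0185) and Tbx3 without FA (0.0481).

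Gbx2 was the member whose course depended most on the condition of differentiation. In serum EB from 2iL it was at 37.5 CPM at day 0 and 39.6 at day 1, and then at 19.4, 10.7, 2.87 and 2.36 CPM at days 1.5, 2, 2.5 and 3. In FA from 2iL it was at 22.8 and 39.2 CPM at days 0 and 1, and then at 46.0, 76.4, 100 and 131 CPM. In N2B27 from 2iL it was at 29.3 and 42.4 CPM, and then at 45.7, 94.4, 164 and 102 CPM. Up to day 2.5 the values of both adherent conditions went up while those of serum EB went down from day 1 on. From SL, serum EB went from 17.4 CPM at day 0 to 27.01, 13.9, 5.34, 3.47 and 1.49 CPM at days 1 to 3. FA went to 46.5, 70.9, 94.3, 78.1 and 66.1 CPM, and N2B27 to 36.4, 64.9, 116, 124 and 79.5 CPM over the same days. From day 1.5 on, no serum EB library reached an adherent library of the same day and medium up to day 5.

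Over days 2.5 and 3 Gbx2 differed in serum EB from FA by -5.27 ± 0.62 on the log2 scale (edgeR adjusted p = 3.6e-06), and from N2B27 by -5.66 ± 0.63 (3.9e-07), and was lower in 4 of 4 pairs of libraries each. These log2 differences kept their call under each alternative tried. Over days 1 to 2 the differences were -1.59 ± 0.43 and -1.79 ± 0.44 (edgeR adjusted p = 0.0091 and 0.0031), lower in 5 of 6 and 6 of 6 pairs. Gbx2 against FA did not pass without SL (0.14), without day 1.5 (0.107) or without day 2 (0.125), and against N2B27 without SL (0.0533) or without day 2 (0.0984). FA and N2B27 differed by -0.39 ± 0.49 at days 2.5 and 3 (edgeR adjusted p = 0.65). With serum EB left out, the step of Gbx2 from day 1 to day 2 from 2iL was 1.21 (edgeR adjusted p = 0.0217), against 0.00 in the fit over all 3 conditions. The condition left out is the one in which Gbx2 fell, so this p-value is no test of a rise in adherent culture. At days 5 and 7 the adherent levels had come down. Gbx2 was at 8.66 and 6.18 CPM in N2B27 from 2iL, 7.86 and 4.64 CPM in N2B27 from SL, 32.3 and 17.5 CPM in FA from SL and 13.3 CPM at day 7 in FA from 2iL. Serum EB was at 1.96 and 2.53 CPM from 2iL and at 1.85 and 10.2 CPM from SL. The late difference between serum EB and FA was -2.40 ± 0.62 (edgeR adjusted p = 0.0078). It did not pass without 2iL (0.119), without SL (0.0757) or without day 5 (0.194). Against N2B27 Gbx2 passed once day 7 was left out (0.0358).

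**Figure D3:**
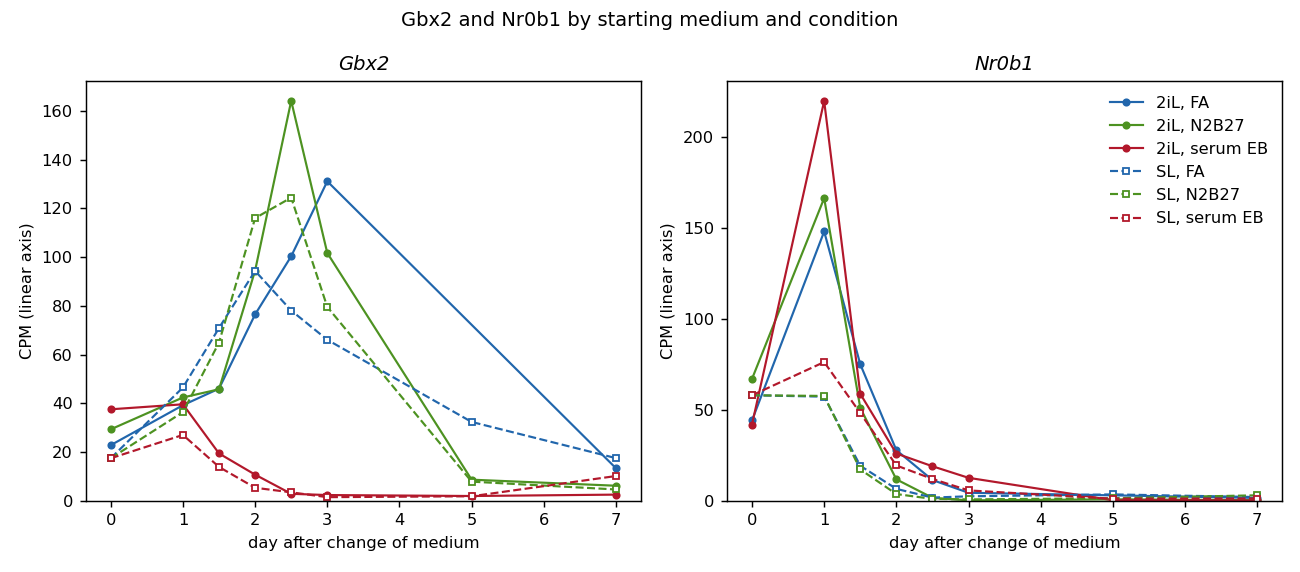
CPM (linear axis) of Gbx2 and Nr0b1 against the day after the change of medium, 1 point per library, coloured by condition, with solid lines for 2iL and dashed lines for SL. Gbx2 reaches 164 CPM in N2B27 from 2iL and is at most at 39.6 CPM in serum EB, and Nr0b1 is highest at day 1 in the 3 time courses from 2iL.

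Nr0b1 was higher in serum EB than in both adherent conditions at days 2.5 and 3. At day 2.5 from 2iL it was at 19.0 CPM in serum EB, 11.4 in FA and 1.66 in N2B27, and at day 3 at 12.6, 4.41 and 0.232 CPM. From SL it was at 12.0, 1.76 and 1.05 CPM at day 2.5 and at 5.71, 2.47 and 0.757 CPM at day 3. The order serum EB, FA, N2B27 was the same on both days and from both media. The N2B27 values rested on few reads, 26 and 4 at days 2.5 and 3 from 2iL and 17 and 12 from SL. The log2 difference of serum EB from N2B27 was 3.67 ± 0.45 (edgeR adjusted p = 1.1e-06) and that from FA was 1.40 ± 0.35 (0.0046), each in 4 of 4 pairs. FA was above N2B27 by 2.27 ± 0.48 (edgeR adjusted p = 0.0026). The difference from N2B27 kept its call under each alternative, whereas that from FA ended without day 2.5 (0.0703) or day 3 (0.0971), and that of FA from N2B27 without 2iL (0.293) or day 3 (0.133). By days 5 and 7 serum EB was the lower: from 2iL it was at 0.301 and 0.160 CPM, and from SL at 1.14 and 1.24 CPM, against 3.52 and 2.05 CPM in FA from SL and 1.58 CPM at day 7 in FA from 2iL. The difference from FA was -1.75 ± 0.55 (edgeR adjusted p = 0.0266) and did not pass without 2iL (0.143), day 5 (0.158) or day 7 (0.161). Against N2B27 it was -1.09 ± 0.55 (edgeR adjusted p = 0.105, DESeq2 adjusted p = 0.0223).

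Of the nuclear receptors, Nr5a2 was higher in serum EB than in both adherent conditions at days 2.5 and 3, and Esrrb was higher than in N2B27. Nr5a2 was at 6.05 and 5.48 CPM in serum EB from 2iL, 4.64 and 2.23 in FA, and 2.94 and 0.868 in N2B27. From SL it was at 7.11 and 3.08 CPM in serum EB, 3.67 and 2.16 in FA, and 1.54 and 1.77 in N2B27. In 4 of 4 pairs serum EB was the higher, by 0.78 ± 0.24 against FA and 1.54 ± 0.26 against N2B27 (edgeR adjusted p = 0.0166 and 5.6e-05). Esrrb was higher in serum EB than in N2B27 by 1.14 ± 0.35 in 4 of 4 pairs (edgeR adjusted p = 0.0127), and at day 3 from 2iL it was at 49.8 CPM in serum EB, 61.5 in FA and 11.8 in N2B27. The difference of Nr5a2 from FA ended without 2iL (0.111), SL (0.104), day 2.5 (0.0798) or day 3 (0.256), and Esrrb ended without 2iL (0.058) or day 3 (0.24). Between FA and N2B27, Tbx3 was lower in FA in 4 of 4 pairs, with a difference of -1.22 ± 0.36 (edgeR adjusted p = 0.0252), and the call ended without SL (0.146), day 2.5 (0.339) or day 3 (0.204). Without day 2.5 Esrrb passed between FA and N2B27 (0.0466), and Nr5a2 passed there with DESeq2 (0.0377) and without TMM factors (0.0495). Without 2iL Tbx3 passed between serum EB and N2B27 (0.0396).

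In this window 3 of 8 members differed between serum EB and FA, 4 of 8 between serum EB and N2B27, and 2 of 8 between FA and N2B27. The shares of all genes tested that did so were 29.1%, 39.7% and 13.3%, so the counts of members were not far from those of the genome. Over days 1 to 2 the counts were 2 of 8 beside 25.3%, 3 of 8 beside 31.6% and 0 of 8 beside 2.13%, also not far from the genome. FA against N2B27 gave no member with an unadjusted p under 0.05 and no call by DESeq2 over days 1 to 2. The early calls beside Gbx2 were Tbx3, lower in serum EB than in FA and N2B27 (-0.92 ± 0.27 and -0.96 ± 0.27, edgeR adjusted p = 0.0138 and 0.0082), and Nr0b1, higher in serum EB than in N2B27 (0.88 ± 0.26, 0.0108). Tbx3 at day 1 from 2iL was at 19.2 CPM in serum EB against 57.3 in FA and 49.7 in N2B27. Tbx3 did not pass without 2iL (0.292 against FA and 0.201 against N2B27), without day 1 (0.116 and 0.0553) or without day 1.5 (0.109 and 0.0823). Nr0b1 did not pass against N2B27 without SL (0.253), day 1.5 (0.0572) or day 2 (0.173). Other early differences passed once libraries were left out: without 2iL those of Nr5a2 (0.029) and Nr0b1 (0.0269) against FA, and without SL those of Tcl1 against FA (0.0374) and of Tfcp2l1 (0.0472) and Zfp42 (0.0431) against N2B27. DESeq2 also called Nr5a2 against FA (0.0388). Libraries of neighbouring days from 1 time course entered these windows as replicates, so the p-values may be too small. Over days 1 to 2 from SL the extraembryonic endoderm markers summed to 1486 to 1949 CPM in serum EB and to 726 to 984 CPM in the adherent conditions. In the test over both media, 3 of 8 were higher in serum EB than in FA, where 13.9% of all genes were. Against N2B27, 3 of 8 were higher and 2 lower, where 17.2% and 14.3% of all genes were. The part of these markers in the early differences was not tested.

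**Figure D4:**
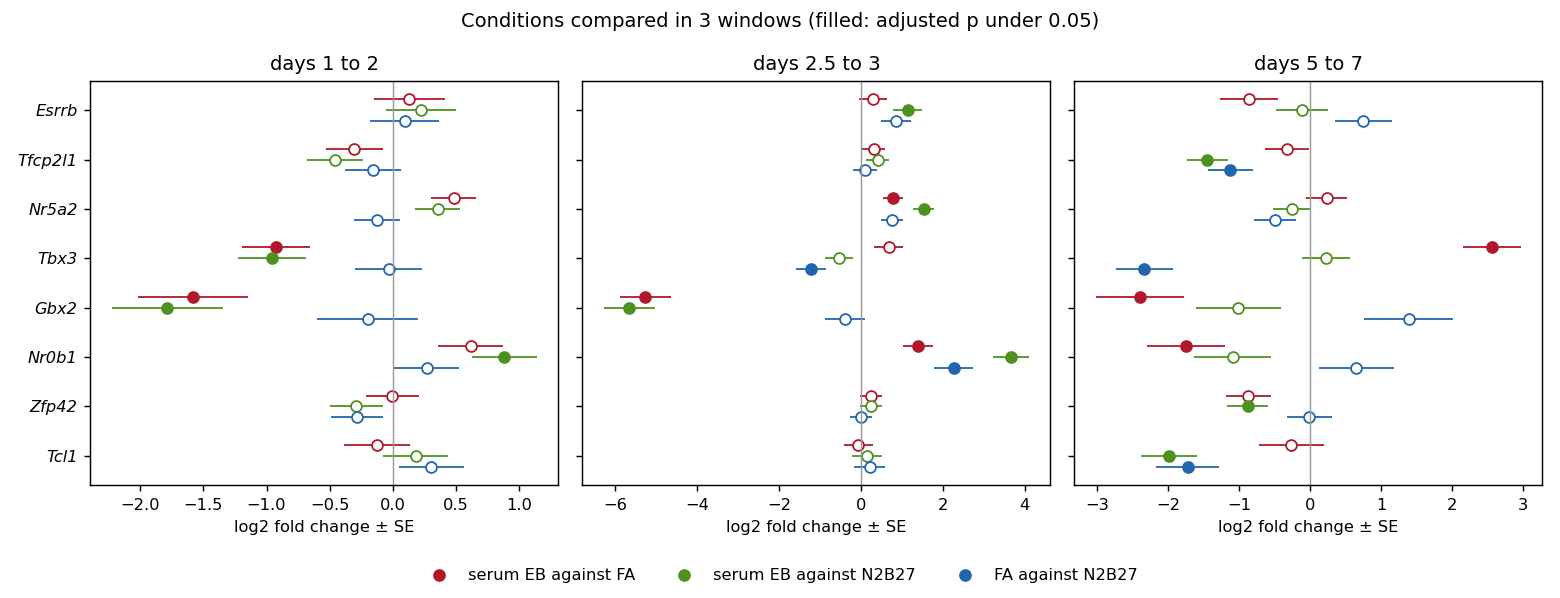
Log2 fold change with its standard error (horizontal axis) between conditions for each of the 8 genes, over days 1 to 2, days 2.5 to 3 and days 5 to 7, where filled points have an edgeR adjusted p under 0.05 and the horizontal scales differ between panels. Gbx2 lies at -5.27 and -5.66 for serum EB against FA and N2B27 at days 2.5 to 3, and Nr0b1 at 3.67 for serum EB against N2B27.

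At days 5 and 7, Tfcp2l1 was highest in N2B27. It was at 20.2 and 93.1 CPM in N2B27 from 2iL and at 41.1 and 117 CPM in N2B27 from SL. In serum EB it was at 12.9 and 13.98 CPM from 2iL and 32.0 and 40.2 CPM from SL, and in FA at 29.2 CPM at day 7 from 2iL and at 39.9 and 41.4 CPM from SL. Over these days the N2B27 libraries of day 7 stood above all others, from both media. Even there Tfcp2l1 was at 5.15% of day 0 from 2iL and at 18.8% from SL. Serum EB differed from N2B27 by -1.45 ± 0.29 on the log2 scale (edgeR adjusted p = 0.00021) with 4 of 4 pairs lower, and FA differed from N2B27 by -1.12 ± 0.31 (0.0066) with 3 of 3 pairs lower. Both calls ended without day 7 (0.0951 and 0.817), and that between FA and N2B27 ended without SL (0.0804).

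Tcl1 was also highest in N2B27, at a much lower level. It was at 1.43 and 2.66 CPM in N2B27 from 2iL and at 3.18 and 3.39 CPM from SL, against 0.151 and 0.240 CPM in serum EB from 2iL, 0.925 and 2.48 CPM in serum EB from SL, and 0.950 to 1.21 CPM in FA. The difference of serum EB from N2B27 was -1.99 ± 0.39 (edgeR adjusted p = 0.00021) and that of FA from N2B27 was -1.73 ± 0.44 (0.0036), which ended without day 7 (0.0548). Tcl1 also differed between serum EB and FA once the SL libraries were left out (0.0431). Zfp42 was lower in serum EB than in N2B27 (log2 -0.88 ± 0.29, edgeR adjusted p = 0.0137), but not without 2iL (0.437) or day 5 (0.0772). Against FA it was at -0.87 ± 0.32 (edgeR adjusted p = 0.0532), and it passed with DESeq2 (0.0151), without SL (0.0068) or without day 7 (0.0155).

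Tbx3 was high in late serum EB and N2B27 and low in FA. At day 7 it was at 80.7 CPM in serum EB, 23.7 in N2B27 and 4.85 in FA from 2iL, and at 27.96, 25.9 and 5.25 CPM from SL. The FA libraries lay below both other conditions in each medium, at 5.25 and 6.48 CPM in the 2 late libraries from SL. FA differed from N2B27 by -2.34 ± 0.40 (edgeR adjusted p = 8.2e-05), a call that held under each alternative tried. Serum EB differed from FA by 2.56 ± 0.41 (edgeR adjusted p = 0.00012), and that call ended without day 7 (0.127). Serum EB and N2B27 differed by 0.23 ± 0.33 (edgeR adjusted p = 0.603). In all, 3 of 8 members passed in each of the 3 comparisons between conditions at days 5 and 7. Of all genes tested, 19.8% passed between serum EB and FA, 46.8% between serum EB and N2B27, and 36.0% between FA and N2B27. The counts of members were thus not far from those of the genome.

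Markers of other cell types also differed between the conditions on these late days. The summed level of the 8 extraembryonic endoderm markers was 1173 and 2271 CPM at days 5 and 7 in N2B27 from 2iL and 2422 and 2714 CPM from SL. In FA it was 118 to 368 CPM over the same days, and in serum EB 123 to 957 CPM. All 8 markers were lower in FA than in N2B27, where 17.3% of all genes tested were lower. In serum EB 6 of 8 were lower than in N2B27, where 22.99% of all genes tested were lower. At day 7 Cubn, an endocytic receptor of visceral endoderm, was at 1462 CPM in N2B27 from 2iL and 1783 CPM from SL. Gata6, a defining factor of that lineage, was at 98.7 and 110 CPM in these libraries and at 3.53 and 4.47 CPM in FA. Sox17 was at 59.1 and 55.7 CPM, and at 2.53 and 2.52 CPM in FA. The level of Tfcp2l1 in N2B27 from SL was 27.3 CPM at day 3 and 41.1 CPM at day 5, when the markers summed to 1952 and 2422 CPM. In the serum EB library of day 7 from 2iL, where Tbx3 was at 80.7 CPM, Hand1, a factor of trophoblast and lateral mesoderm, was at 364 CPM, and the 7 mesendoderm markers together were at 183 CPM after 796 CPM at day 5. In the serum EB library from SL at day 7, with Tbx3 at 27.96 CPM, Hand1 was at 18.2 CPM. Neural markers summed to 554 to 638 CPM at days 5 and 7 in N2B27 from 2iL and to 357 to 407 CPM from SL, against 105 to 262 CPM in serum EB and 179 to 434 CPM in FA. Of these 7 markers 5 were lower in serum EB and 3 in FA than in N2B27. Among the 2-cell-like markers 3 of 6 were lower in serum EB than in N2B27. These counts stand beside the same 22.99% of all genes for serum EB and 17.3% for FA. The part of these cell types in the late levels of Tfcp2l1, Tcl1 and Tbx3 was not tested.

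**Figure D5:**
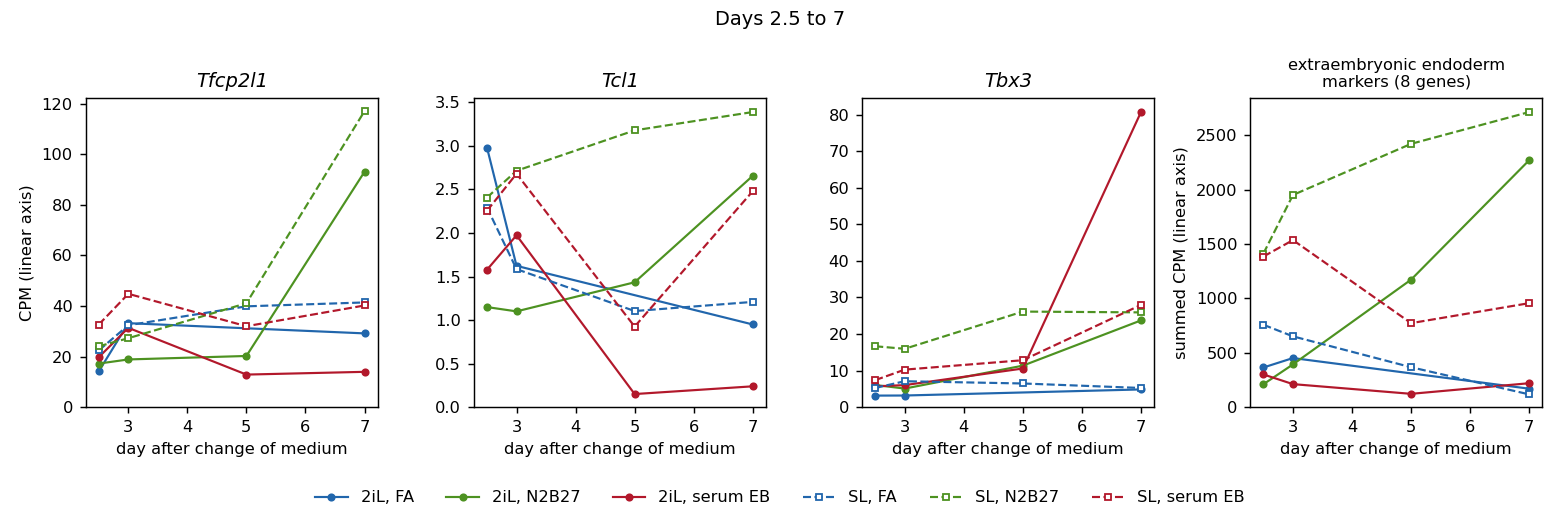
CPM (linear axes) of Tfcp2l1, Tcl1 and Tbx3, and the summed CPM of 8 extraembryonic endoderm markers, at days 2.5 to 7, 1 point per library, with solid lines for 2iL and dashed lines for SL; the line of FA from 2iL has no point at day 5. Tfcp2l1 reaches 93.1 and 117 CPM in the N2B27 libraries of day 7, where the markers sum to 2271 and 2714 CPM, and Tbx3 reaches 80.7 CPM in serum EB from 2iL.

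The rest of the naive network was read from a list of 14 other genes, which holds the core factor Nanog, the Krüppel-like factor Klf4, the repressor of Fgf signalling Prdm14 and the maternal factor Dppa3 among others. From day 0 to day 1 in 2iL, 8 of 14 fell and 6 did not pass, with a median change of -2.08, and at day 7 14 of 14 were lower. Prdm14 changed by -2.93 ± 0.51, Dppa3 by -3.11 ± 0.54 and Klf4 by -2.34 ± 0.54 over the initial day (edgeR adjusted p = 0.00052, 0.00047 and 0.0043), while Nanog was at -2.03 ± 0.78 (0.0624). From SL, 6 of 14 fell over that day with a median of -0.89, beside 9.69% of all genes. Between day 1 and day 2, 6 of 14 fell from 2iL and 9 of 14 from SL, beside 8.77% and 8.66% of all genes. At day 0, 8 of 14 were higher in 2iL than in SL and 1 was lower, beside 13.5% and 17.3% of all genes. Between day 3 and day 7 from 2iL, 3 of 14 rose and 2 fell, beside 14.3% and 13.9%, so these counts were not far from those of the genome. Klf4, a zinc finger factor downstream of Stat3, was among those that rose (2.05 ± 0.59, edgeR adjusted p = 0.0181). Klf4 was also lower in serum EB and in FA than in N2B27 at days 5 and 7 (-2.41 ± 0.24 and -3.19 ± 0.29, edgeR adjusted p = 3.4e-08 and 1.4e-08), at 22.2 and 31.0 CPM in N2B27 at day 7 from 2iL and SL.

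Genes of the next state moved the other way over the initial day. Of 10 formative genes, which mark the epiblast after implantation, 9 rose from 2iL and 7 from SL, with medians of 3.31 and 2.997. Of all genes tested 14.6% rose from 2iL and 8.46% from SL. Fgf5 rose by 6.80 ± 1.34 from 2iL (edgeR adjusted p = 0.0013). Of 7 general pluripotency genes 4 rose from day 0 to day 1 in 2iL and 3 did not pass, beside the same 14.6%. Of 10 regulators of the exit from the naive state 6 rose and 1 fell, and Tcf7l1 itself was at -0.03 ± 0.31 (edgeR adjusted p = 0.962).

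The close relatives of the members were read from a list of 14 paralogues, of which 7 passed the filter in the 2iL libraries. Over the initial day 1 rose and 1 fell, a share equal to the 28.6% of all genes tested, and the summed level of the 14 was between 191 and 280 CPM in all 45 libraries. Tfcp2, the relative of Tfcp2l1, changed by -0.57 ± 0.16 (edgeR adjusted p = 0.012) and Ubp1 by 0.07 ± 0.08 (0.529) where Tfcp2l1 changed by -3.12. At day 7 against day 0 in 2iL, 3 of the 7 paralogues tested were higher and 4 did not pass. The share of all genes higher was 33.8%, so this count was not far from that of the genome. Those higher were Esrrg (7.35 ± 0.96), Tbx2 (4.05 ± 0.76) and Gbx1 (3.61 ± 1.10), where their relatives Esrrb, Tbx3 and Gbx2 were lower.

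Across the 45 libraries, Gbx2 also stood apart in how members varied together. Pearson's r of log2 CPM was between -0.02 and 0.35 for the 7 pairs with Gbx2 and between 0.38 and 0.95 for the 21 other pairs. These correlations describe libraries that share time courses and a common fall, and they carry no test. Among 13760 genes with a mean of at least 1 CPM, other than members, the closest in pattern to Esrrb was Cobl (r = 0.95). Cobl was also the closest to Zfp42 (0.97) and was the second closest to Tcl1 (0.95), after Pde8a (0.95). Tfcp2l1 was closest to Gm23497 (0.98), which lies within it on the same strand and may share its reads, and then to Mtmr12 (0.93) and Rfx2 (0.93). Nr5a2 was closest to 1700061G19Rik (0.95), Nfatc2ip (0.95) and Acadm (0.95). Tbx3 was closest to Klf4 (0.90), followed by Sik1 (0.88) and Alpk3 (0.85). Nr0b1 was closest to Mybl2 (0.95), Liph (0.94) and Sap25 (0.94). Gbx2 had the lowest values at this rank, with Cyb5b at 0.86, D130058E05Rik, which overlaps it on the opposite strand, at 0.83, and Halr1 at 0.82. The remaining near genes were 1700061G19Rik and Kat6b for Esrrb, Mylpf and Phf11d for Zfp42, and Gm13128 for Tcl1, at 0.95 to 0.97.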

How the data were processed

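Strand-specific RNA-seq of 45 libraries of male E14tg2a ESCs was used. The authors trimmed reads with TrimGalore, mapped them to GRCm38 (mm10) with TopHat2, allowing 1 mismatch and guided by Ensembl release 82 models, and assigned them to genes by strand with featureCounts. The authors deposited the raw counts; tool versions are not given in the sources used here. From these counts, CPM, TMM factors (0.853 to 1.09) and all fits were computed with edgeR 4.0.16 or DESeq2 1.42.0 under R 4.3.3; Python 3.11.15 made the tables and plots. The main test was edgeR's quasi-likelihood test after filterByExpr, with p-values adjusted by Benjamini-Hochberg over all genes tested and a threshold of 0.05. Of the 35372 genes in the files, 34599 were in the annotation used for positions and exon lengths. Standard errors were derived from the log2 change and its F statistic.

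Each medium and day was a group, and its 3 conditions were its replicates. The pairing by condition comes from the labels and was used as a replicate block. As a check, 41 of 42 libraries deviated from their group mean more like libraries of their own condition on other days than like those of other conditions. The exception was the serum EB library of day 0 from 2iL (mean r -0.028 against 0.014), made before any condition was applied. The FA and N2B27 libraries of day 0 from 2iL were at 0.109 and 0.102 with their own condition. The fits to the 2iL libraries used the block at day 0 as well, so it is weakly grounded there. Day steps were fitted to the 23 libraries from 2iL or the 22 from SL, media at day 0 to the 4 day 0 libraries, media on later days and conditions to the 41 libraries from day 1 on, and the interaction to all 45. With 3 conditions, an exact sign-flip test of 1 gene cannot go below p = 0.25, so none is given. No pair of libraries of 1 group was a duplicate: over 43 such pairs, the mean chi-square of their counts was at least 20.6 times the sampling noise. Pairs across days or media were not checked.

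The members and gene lists were chosen with earlier results of these data known. Genes named are the 8 members, at most 5 genes of each list, and for each member the 3 genes with the highest Pearson correlation of log2(CPM + 0.1). Extraembryonic endoderm, trophoblast, mesendoderm, neural and 2-cell-like marker lists were summed per library. Neural markers summed to 28.6 to 638 CPM and trophoblast markers to 13.8 to 467 CPM. The 2-cell-like markers summed to 787 to 1691 CPM in FA and N2B27 from SL at days 1 to 3, and to at most 643 CPM in the other libraries. Alternatives were DESeq2, no TMM, no filter, no replicate block, the spread of all 45 libraries, each condition, medium or day left out, CPM with TMM factors, and a pseudocount of 1 CPM. The test was tried on simulated counts first.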

Additional observations from a re-analysis of the deposited data

Results flagged for a closer look

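The results here stood out because both time courses of 1 condition, from 2iL and from SL, moved one way between a pair of days while both of another condition moved the opposite way. Each difference rests on 2 time courses per condition and was not tested; values are differences of mean log2 changes with a pseudocount of 0.1 CPM. For Gbx2, a homeobox factor, the change from day 1 to day 2 in serum EB differed from that in FA by -3.09 and from that in N2B27 by -3.51. From day 3 to day 7 its change in serum EB was above that in FA by 3.99 and above that in N2B27 by 5.44, as the adherent levels came down. For Nr0b1, the nuclear receptor corepressor, the change from day 3 to day 7 in serum EB differed from that in N2B27 by -5.01, and that in FA differed from N2B27 by -1.99. These changes of Nr0b1 rest on levels down to 0.160 CPM. For Tfcp2l1 the change from day 3 to day 7 in serum EB differed from that in N2B27 by -2.86, since it rose in N2B27 from both media. For Tcl1 the same difference was -2.11, and that between FA and N2B27 was -1.29. For Esrrb the change from day 2 to day 3 differed between FA and N2B27 by 1.47, with rises in both FA time courses. No group had 4 or more samples, so no sample was compared with the spread of its own group.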

How the results depend on the processing

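Of the 1440 values of single members under the alternatives, 1323 kept direction and side of the threshold, 87 kept direction but lost the call, 30 gained one and 0 reversed. Counts of members called moved by over 1.5 times as follows. With the spread of all 45 libraries, 3 members passed from day 2 to day 3 from 2iL (1 in the main test), 1 from day 0 to day 1 from SL (2), 1 from day 2 to day 3 from SL (2), 0 from day 3 to day 7 from SL (1) and 2 at day 0 between the media (4). From day 3 to day 7 from SL, 0 passed without the filter on low counts. The replicate block, which pairs libraries by condition, held 5 calls that were lost without it, those of Tbx3, Gbx2 at both steps to day 7, Esrrb and Tfcp2l1 named above. Without it 1 member passed from day 0 to day 1 from SL and 0 from day 3 to day 7 from SL, and the other 3 counts fell by 1. Over all genes, leaving the block out lowered calls from 4663 to 3054 for day 1 against day 0 from 2iL, and from 2991 to 1082 from SL. It lowered them from 2962 to 1482, 3611 to 1800 and 4598 to 2537 for the later steps from 2iL, and from 2995 to 1397, 2081 to 367 and 4943 to 2152 for those from SL. Between media it lowered them from 2323 to 1102, 1359 to 518, 94 to 38 and 15 to 7 at days 1, 2, 3 and 7, and for the interaction from 1461 to 493. DESeq2 called 220 and 64 genes between the media at days 3 and 7 (94 and 15 by edgeR) and 759 between FA and N2B27 over days 1 to 2 (350). The mean level of Nr5a2 in 2iL at day 0 was 106 CPM with TMM factors and 103 CPM without.

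With each condition left out in turn, the number of members called from 2iL ranged from 2 to 5 for day 1 against day 0, 6 to 8 for day 7 against day 0, 3 to 8 for day 2 against day 1, 0 to 4 for day 3 against day 2 and 1 to 4 for day 7 against day 3. From SL the ranges were 1 to 2, 6 to 7, 1 to 1 and 0 to 2 for the same steps between neighbouring days, and between the media at day 0 3 to 4. Between the media on later days and for the interaction they were 0 to 0. With each medium or day left out, serum EB against FA ranged from 0 to 3, 1 to 2 and 1 to 4 over days 1 to 2, 2.5 to 3 and 5 to 7, serum EB against N2B27 from 1 to 3, 3 to 4 and 2 to 3, and FA against N2B27 from 0 to 0, 0 to 2 and 1 to 3. These fits have fewer samples; the cause of other changes was not tested. Few reads limit Nr0b1 and Tcl1 after day 3, and in some adherent libraries from day 2.5 on.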
